A study of Mus musculus with 36 samples.

Results

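The interferon response and antigen presentation genes are a set of 36 named genes, of which 18 had a mean count above 5 over all 36 libraries and were described here, among 20355 genes tested. They were taken by GENCODE symbol from a table of 55492 rows. The cells, labelled C57EDCX, were dissociated cortex of mouse embryos at embryonic day 18, bought from a supplier and kept in culture for 10 days before treatment. The groups were untreated control cultures in fresh medium, cultures given DEX (dexamethasone, a synthetic glucocorticoid that activates the glucocorticoid receptor) at 1 µM, and cultures given DEX with RU-486 (mifepristone, an antagonist of that receptor), each at 1 µM, all for 72 h with a replenishment at 48 h. Each group had 12 libraries, 6 in each of 2 labelled batches. No allele, genotype difference or cell sort is given in the labels, and the number of embryos is not given in the sources used here. The study's methods call the 12 libraries of a group experimental replicates, without saying whether each was a separate culture, so p-values measure only the spread between these libraries, which may be technical.

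Interferons are secreted proteins that bind receptors coupled to Janus kinases. These kinases phosphorylate STAT proteins, and a complex that holds STAT2 and IRF9 binds interferon-stimulated response elements in the promoters of antiviral genes. Cytosolic RNA sensors such as RIG-I (Ddx58) and MDA5 (Ifih1) start the loop by inducing interferon. The same signals raise class I antigen presentation, in which the TAP transporter moves peptides into the endoplasmic reticulum and tapasin helps load them on heavy chains bound to beta-2-microglobulin. Neurons are known for low class I expression, and glucocorticoids are known to restrain inflammatory transcription, in part by inducing IκBα (Nfkbia), the inhibitor of NF-κB.

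Promoters were read from RefSeq (GRCm38.p6), which held one for 28 of the 36 genes, as 300 bases from 250 before to 50 after the start. All motifs were searched on both strands. The core of the interferon-stimulated response element, GAAANNGAAA, was present in 14 of the 28, against 3.99% of 27025 genes with a promoter. It was found in 10 of the 13 genes with a promoter at or under the count filter (Bst2, Cxcl10, Gbp2, Gbp3, Ifit1, Ifit3, Isg15, Oas1a, Rsad2 and Trim30a), and in 4 of the 15 above it (B2m, Ddx58, Ifih1 and Stat2). The NF-κB consensus was found in 9 of 28 (B2m, Bst2, Cxcl10, Gbp2, H2-D1, H2-K1, Ifit2, Irf1 and Nfkbia) against 9.55% of all genes. The STAT site TTCNNNGAA was in 5 of 28 (Bst2, Ifi35, Ifit2, Irf1 and Oas1a) against 9.55%, and the glucocorticoid response element core ACANNNTGT was in 2 of 28 (Gbp3 and Lcn2) against 7.9%. A match is a run of letters and not a measured site, and a window without one says nothing of the factor.

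The 250 bases before the start are shown for 3 genes that were nearly silent here (Isg15, Ifit3 and Cxcl10) and 4 that were counted in all libraries (Stat2, B2m, H2-K1 and Nfkbia), 5′ to 3′ on the strand of the gene, with matches to the response element and to NF-κB in capitals. Isg15 (chr4:156200819-156201068, minus strand) held 3 overlapping response element cores, the farthest beginning 78 bases before the start. Ifit3 (chr19:34583279-34583528, plus) held 2, Cxcl10 (chr5:92348890-92349139, minus) held 1 and 3 NF-κB matches of which 2 overlap, and Stat2 (chr10:128270248-128270497, plus) held 1. B2m (chr2:122147437-122147686, plus) held 1 of each, H2-K1 (chr17:34000348-34000597, minus) 2 overlapping NF-κB matches, and Nfkbia (chr12:55492648-55492897, minus) 1 NF-κB match at 29 bases before the start.
Isg15: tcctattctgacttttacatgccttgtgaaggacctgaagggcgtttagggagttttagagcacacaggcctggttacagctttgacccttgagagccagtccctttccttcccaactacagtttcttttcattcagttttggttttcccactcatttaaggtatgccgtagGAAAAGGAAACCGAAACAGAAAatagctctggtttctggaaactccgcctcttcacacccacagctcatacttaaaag
Ifit3: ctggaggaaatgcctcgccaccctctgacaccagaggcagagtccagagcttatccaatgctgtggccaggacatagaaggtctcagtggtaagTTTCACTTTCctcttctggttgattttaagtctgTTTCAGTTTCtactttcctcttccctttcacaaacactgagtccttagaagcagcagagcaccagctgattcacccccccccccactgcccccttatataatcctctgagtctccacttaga
Cxcl10: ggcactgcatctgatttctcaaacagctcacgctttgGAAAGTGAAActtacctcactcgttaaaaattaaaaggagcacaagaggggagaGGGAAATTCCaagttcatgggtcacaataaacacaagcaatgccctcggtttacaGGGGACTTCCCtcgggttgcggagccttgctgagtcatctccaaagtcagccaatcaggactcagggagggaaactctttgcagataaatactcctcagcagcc
Stat2: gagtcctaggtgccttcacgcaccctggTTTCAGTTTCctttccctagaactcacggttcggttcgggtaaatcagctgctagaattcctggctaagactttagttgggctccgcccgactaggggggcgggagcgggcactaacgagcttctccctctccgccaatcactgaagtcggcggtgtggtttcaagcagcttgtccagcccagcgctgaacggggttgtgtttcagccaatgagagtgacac
B2m: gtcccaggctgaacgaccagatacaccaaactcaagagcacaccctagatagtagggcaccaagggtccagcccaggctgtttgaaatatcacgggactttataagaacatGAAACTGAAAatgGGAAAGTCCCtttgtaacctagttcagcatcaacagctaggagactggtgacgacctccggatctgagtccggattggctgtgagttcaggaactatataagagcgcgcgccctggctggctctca
H2-K1: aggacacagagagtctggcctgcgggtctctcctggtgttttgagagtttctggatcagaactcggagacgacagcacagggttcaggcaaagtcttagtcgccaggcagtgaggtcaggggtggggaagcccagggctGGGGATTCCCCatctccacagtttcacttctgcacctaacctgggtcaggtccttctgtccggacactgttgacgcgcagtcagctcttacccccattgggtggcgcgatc
Nfkbia: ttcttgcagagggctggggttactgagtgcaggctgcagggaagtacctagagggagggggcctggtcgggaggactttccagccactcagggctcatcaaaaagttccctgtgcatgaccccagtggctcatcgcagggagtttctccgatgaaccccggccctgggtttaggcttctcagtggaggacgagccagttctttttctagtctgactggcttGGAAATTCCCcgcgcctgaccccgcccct

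RNA integrity and depth differed between groups and bear on all that follows. The RNA integrity number (RIN, 10 at best) was 6 or above in 28 of the 36 libraries, here called intact, and under 6 in 8. These 8 were DEX 12 (RIN 3.9) and DEX + RU-486 18 (RIN 5.6) of batch 1, and a pair in each group of batch 2 with a RIN under 3. In batch 1 the control libraries had both the highest RIN (7.8 to 9.2) and most of the depth (24200944 to 82437454 counts), against RIN 3.9 to 7.8 and 12133485 to 22328120 counts in DEX and RIN 5.6 to 7.9 and 17354341 to 26729341 counts in DEX + RU-486. Treatment and RNA integrity therefore cannot be told apart in batch 1. Values below are CPM (counts scaled to library size with TMM factors). A gene was called where edgeR's quasi-likelihood p, adjusted over all genes by Benjamini-Hochberg, was under 0.05.

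The cultures expressed the class I heavy chains, B2m and Tapbp at moderate levels, and most antiviral genes and Tap2 close to nothing. Per kilobase of exon, the median over the 10 intact control libraries was highest for the heavy chain H2-D1 at 13.5 CPM per kb, the 88.8th percentile of the genes tested, followed by H2-K1 at 8.1. Stat2 (6.34), Nfkbia (5.0), B2m (4.01) and Tapbp (3.12) came next. A step down lay Ifit2 (1.04), Irf9 (0.946) and Tap1 (0.744). The remaining 9 counted genes ranged from 0.287 for Ifi35 to 0.0164 for Parp14, the 1.9th percentile. The ranges over libraries of neighbours in this order overlapped, as for H2-K1 (4.39 to 14.2) and Stat2 (4.81 to 7.17), except between Tapbp (2.4 to 4.05) and Ifit2 (0.676 to 1.22).

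**Figure D1:**
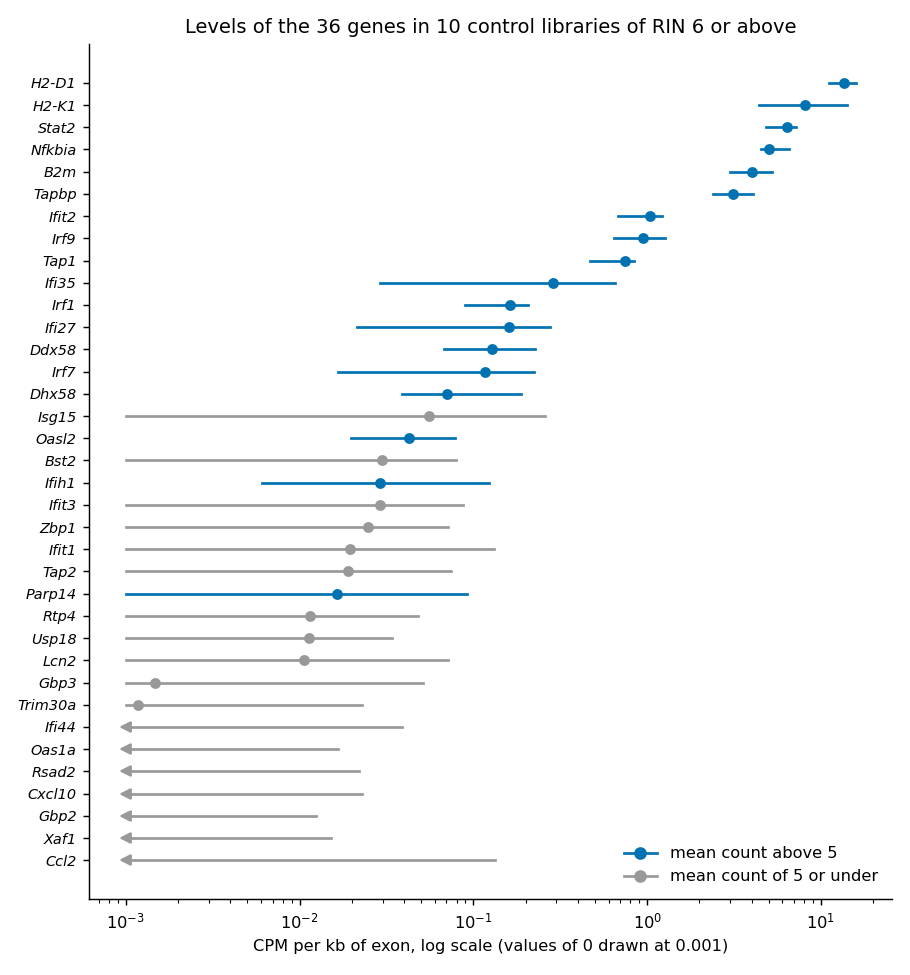
Expression of the interferon response and antigen presentation genes per kilobase of exon in the 10 control libraries with a RIN of 6 or above. The axis is logarithmic, in CPM per kb. Points are medians, and lines run from the lowest to the highest library. H2-D1, H2-K1, Stat2 and Nfkbia have the highest medians (13.5 to 5.0), and among the genes under the count filter the highest median is 0.0558 and the highest library 0.259, both of Isg15.

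With all 36 libraries and batch in the model, none of the 18 genes was called in any comparison. In DEX against control, 0 of 18 were called beside 0.0246% of all genes, and DESeq2, which gave an adjusted p for 12 of the 18, also called 0, beside 2.21%. At an unadjusted p under 0.05 there were 2 of 18, Stat2 and Nfkbia, beside 16.9% of all genes. In DEX + RU-486 against control, 0 were called (0% of all genes, 0.481% in DESeq2) and 0 had an unadjusted p under 0.05 (10.8% of all genes). In DEX + RU-486 against DEX, 0 were called (0% of all genes, 0.00983% in DESeq2) and again 0 at the unadjusted p (2.68% of all genes). DESeq2 called 0 in both, of 16 and 18 with an adjusted p. The smallest adjusted p among the 18 was 0.165, 0.493 and 1 in these comparisons, in that order. The median log2 fold change of the 18 was -0.05 in DEX against control, 0.02 in DEX + RU-486 against control and 0.04 between the treatments, beside -0.0066, 0.02 and 0.02 for all genes, and 8, 9 and 11 of the 18 were positive. With all libraries these counts differed by batch, a difference that was not tested for the set. In DEX against control 13 of 18 were positive in batch 1 (median 0.15, beside 0.02 for all genes) and 6 in batch 2 (median -0.15, beside -0.02). In DEX + RU-486 against control 12 were positive in batch 1 (median 0.26, beside 0.03) and 6 in batch 2 (median -0.19, beside 0.0069). In the intact libraries, DEX against control had 11 positive in batch 1 (median 0.07, beside 0.01) and 9 in batch 2 (median 0.07, beside 0.006). The opposite medians of DEX against control were thus not seen there. DEX + RU-486 against control had 11 (median 0.34, beside 0.02) and 9 (median -0.01, beside 0.03).

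The 28 intact libraries gave calls for a few genes. In DEX against control, 3 of 18 were called, Stat2 and H2-D1 lower and Nfkbia higher, beside 19.7% of all genes. In DEX + RU-486 against control 1 was called, Irf9 higher, beside 8.86% of all genes. Between the treatments 0 were called (0% of all genes), and 0 had an unadjusted p under 0.05 (8.93% of all genes). These shares are at or under the share of all genes. With RIN as a covariate in the same 28 libraries, 0 of 18 were called in each comparison, beside 0.0933% of all genes in DEX against control, 1.74% in DEX + RU-486 against control and 0.0147% between the treatments, and the smallest adjusted p in edgeR was 0.0953 in DEX against control and 0.112 in DEX + RU-486 against control. The log2 fold changes in DEX were then -0.26 for Stat2, -0.34 for H2-D1 and 0.31 for Nfkbia, beside -0.37, -0.26 and 0.39 without the covariate. That of Irf9 in DEX + RU-486 was 0.34 beside 0.35. DESeq2 on the intact libraries also called Stat2 and Nfkbia in DEX, but not H2-D1 (-0.22, adjusted p = 0.0501), and called B2m (0.41, adjusted p = 0.0484), 3 of 18 beside 21.2% of all genes. In DEX + RU-486 it called Irf9, 1 of the 14 with an adjusted p, beside 11.2%.

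**Figure D2:**
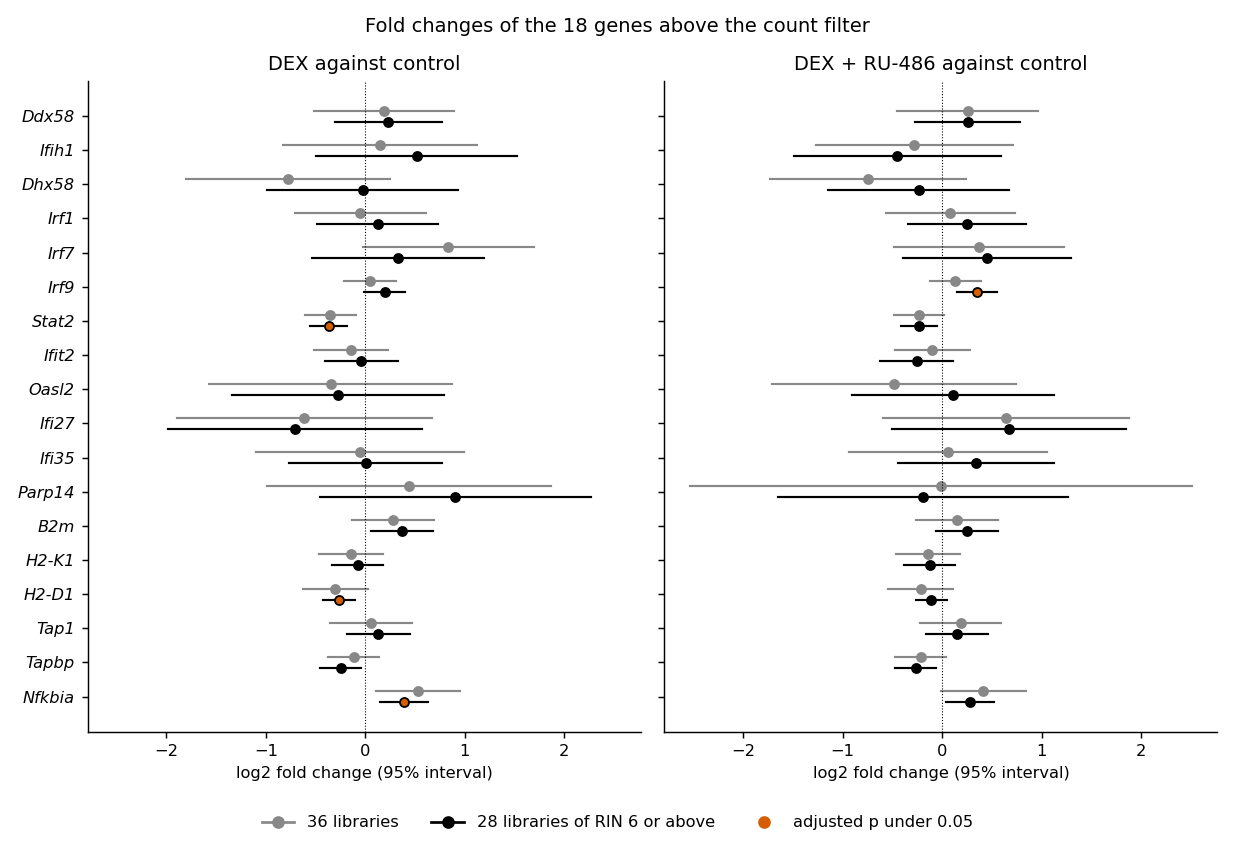
Log2 fold changes of the 18 counted genes against control with 95% intervals, for all 36 libraries and for the 28 with a RIN of 6 or above. Intervals are narrow for Stat2, Irf9 and the class I genes and wide for genes with few counts, such as Parp14 (SE 0.728 in DEX against control).

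Stat2 encodes the STAT protein that is specific to type I and type III interferon signalling. In batch 1 the control libraries had 28.5, 31.3, 37.8, 37.9, 38.0 and 42.5 CPM, and the DEX libraries of that batch 18.4, 24.1, 24.6, 27.9, 30.9 and 35.7. The medians were 37.8 and 26.3, and 2 of the DEX values (30.9 and 35.7) were inside the control range. In batch 2 the intact control libraries had 36, 36.9, 37.4 and 42.4 CPM and the intact DEX libraries 29.2, 32.1, 33.4 and 33.6. These groups of 4 did not overlap, but Stat2 did not have an unadjusted edgeR p under 0.05 there, as 13.7% of all genes did. The share of all genes without overlap was not counted. The 2 control libraries of low RIN (20.2 and 26.4) were below every intact DEX library of batch 2. With all libraries the log2 fold change was -0.35 (SE 0.131, 95% interval -0.61 to -0.10) with an adjusted p of 0.165, and in the intact libraries Stat2 fell by 0.37 (SE 0.0942, edgeR adjusted p = 0.00608). The DEX + RU-486 libraries that were intact ranged from 23.5 to 35 in batch 1 and from 31 to 38.7 in batch 2. These had log2 fold changes of -0.23 against control (SE 0.0934, edgeR adjusted p = 0.119) and 0.14 against DEX (SE 0.0965, edgeR adjusted p = 0.688).

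Irf9, the DNA-binding partner of STAT2, was higher in DEX + RU-486 than in control in the intact libraries. In batch 1 the control libraries had 3.49, 3.91, 4.52, 4.81, 5.2 and 6.01 CPM and the intact DEX + RU-486 libraries 5.29, 5.72, 6.49, 6.67 and 6.81, with 2 of these inside the control range. In batch 2 they had 4.99, 6.22, 6.31 and 6.84 against 6.46, 7.19, 7.23 and 8.36. The log2 fold change was 0.35 (SE 0.104, edgeR adjusted p = 0.0312) in the intact libraries and 0.13 (SE 0.132, adjusted p = 0.752) in all. The highest value of all was control 20 of batch 2, at 10 CPM and a RIN of 1.8. The other factors were low. Irf1, an interferon-γ induced activator, ranged from 0.0823 to 1.4 CPM in intact libraries and Irf7, the amplifier of type I interferon, from 0 to 1.57. In DEX against control their log2 fold changes were -0.05 (SE 0.336) for Irf1 and 0.83 (SE 0.439, edgeR adjusted p = 0.332) for Irf7. Intact libraries gave 0.13 (SE 0.312) for Irf1, of the other sign, and 0.33 (SE 0.442) for Irf7. In Irf7 the largest values were in low-RIN DEX libraries (2.15 in DEX 12 and 2.18 in DEX 26).

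The cytosolic sensors were low, with mean counts per library of 29.9 for Ddx58, 10.1 for Ifih1 and 8.2 for Dhx58, and the intervals of their changes were wide. Ddx58 (RIG-I) ranged from 0.174 to 2.41 CPM in the intact libraries, with a log2 fold change in DEX against control of 0.19 (95% interval -0.52 to 0.90). Ifih1 (MDA5) gave 0.15 (-0.83 to 1.12), and Dhx58 (LGP2, a regulator of both) gave -0.77 (-1.80 to 0.25). The intact libraries gave 0.23 for Ddx58, 0.52 for Ifih1 and -0.03 for Dhx58. In Dhx58 the control range of batch 2 reached 2.14 only through a library of RIN 2.7, while intact control libraries of that batch had 0.218, 0.286, 0.377 and 0.614.

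The antiviral effectors that passed the filter were Ifit2, Oasl2, Ifi27, Ifi35 and Parp14. Ifit2, an RNA-binding inhibitor of translation, had 2.65 to 4.63 CPM (median 4.07) in control and 2.39 to 5.23 (median 3.71) in DEX in batch 1, and 2.58 to 5.41 (median 4.06) and 2.03 to 5.32 (median 3.37) in batch 2. The groups overlapped over most of their range, and the log2 fold change was -0.14 (SE 0.192). Oasl2, an oligoadenylate synthetase-like protein, had log2 fold changes of -0.35 (SE 0.623) in DEX and -0.49 (SE 0.626) in DEX + RU-486 against control. With intact libraries these were -0.27 (SE 0.542) and 0.11 (SE 0.519), so the second changed sign. Its values were 0 to 0.738 CPM in intact libraries and 1.15 to 5.27 in the 6 libraries of RIN under 3, all of batch 2, so those ranges did not overlap. Parp14, an ADP-ribosyltransferase, went up to 3.59 CPM in these 6 libraries. Ifi27 and Ifi35 stayed at or under 1.67 CPM in every library.

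Class I antigen presentation was the best measured group. H2-D1 had 30.6, 34.7, 34.8, 35.3, 40.6 and 41.1 CPM in the control libraries of batch 1 and 26.4, 33.1, 33.9, 34.9, 35.2 and 41.5 in DEX, largely overlapping. In batch 2 the intact control libraries had 28.9, 30.9, 33.2 and 35.2 and the intact DEX libraries 18.7, 21.9, 26.2 and 27.9, without overlap. There H2-D1 was not called, and had an unadjusted edgeR p under 0.05, as did 13.7% of all genes. With all libraries the fold change of H2-D1 on the log2 scale was -0.30 (SE 0.168), at an edgeR adjusted p of 0.366, and in the intact ones H2-D1 fell by 0.26 (SE 0.0817, edgeR adjusted p = 0.0212). Of 14 alternatives, 2 called H2-D1, this one and the same without DEX 27, and DESeq2 on the intact libraries gave an adjusted p of 0.0501. Of the 50-base words of the longest H2-D1 transcript, 14.3% occur in other genes as well, most often H2-Q1, H2-Q6 and H2-Q7, and 5.31% occur in H2-K1. Of those of H2-K1, 8.11% are shared and 6.52% occur in H2-D1, so the counts of both genes may hold reads of each other and of paralogs. H2-K1 had a log2 fold change of -0.14 (SE 0.166) in DEX and -0.14 (SE 0.166) in DEX + RU-486. H2-K1 differed more by batch than by treatment, at 23.7 to 41.8 CPM in the control libraries of batch 1 and 12.9 to 19.8 in the intact ones of batch 2. No test of batch was made.

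The partners of the heavy chains were not called in either treatment over both batches by edgeR. B2m, the light chain, had 3.44 to 4.49 CPM (median 4.03) in control and 2.96 to 6.98 (median 4.73) in intact DEX libraries of batch 1, with a log2 fold change over the intact libraries of 0.37 (SE 0.16, edgeR adjusted p = 0.104), 0.32 in those of batch 1 and 0.41 in those of batch 2. The value of batch 2 rests on DEX 27, at 5.98 CPM beside 2.49, 3.02 and 3.31 in the other intact DEX libraries, and without it was 0.08 (SE 0.229), with 0.22 (SE 0.144) over both batches. Tap1, a subunit of the peptide transporter, gave 0.06 (SE 0.209) in DEX and 0.19 (SE 0.208) in DEX + RU-486. Tapbp (tapasin, the peptide loading chaperone) had 11, 11.6, 12.3, 13, 13.7 and 14.7 CPM in the control libraries of batch 1 against 7.48, 8.24, 8.49, 8.62, 9.23 and 11.2 in DEX + RU-486. The highest of the latter, in a library of RIN 7.9, was the single one inside the control range. In batch 2 the intact libraries had 8.69 to 9.94 in control and 8.29 to 11.4 in DEX + RU-486. Exons of Tapbp share 24.9% of their bases with the antisense gene Gm19412, and without a stated strand the reads of both cannot be told apart.

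Nfkbia, the inhibitor of NF-κB, was the one gene of the 18 that edgeR called higher in DEX in the intact libraries. DESeq2 called both Nfkbia and B2m higher there. In batch 1 the control libraries had 7.69, 8.06, 8.1, 8.19, 9.37 and 10.6 CPM and the DEX libraries 8.56, 10.6, 10.9, 11.3, 16 and 30. In batch 2 the intact control libraries had 7.27, 7.39, 7.9 and 8.03 and the intact DEX libraries 7.42, 8.85, 10.4 and 12.4. The 30 came from DEX 12 (RIN 3.9), and 3 other libraries of low RIN were the highest of their group and batch, at 36.3 in DEX + RU-486 18, 20 in DEX 26 and 15 in control 20. The log2 fold change in DEX was 0.53 (SE 0.216, adjusted p = 0.202) with all libraries and 0.39 (SE 0.123, edgeR adjusted p = 0.0233) in the intact ones, where Nfkbia rose. In DEX + RU-486 it was 0.28 (SE 0.123, adjusted p = 0.154) in the intact libraries.

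**Figure D3:**
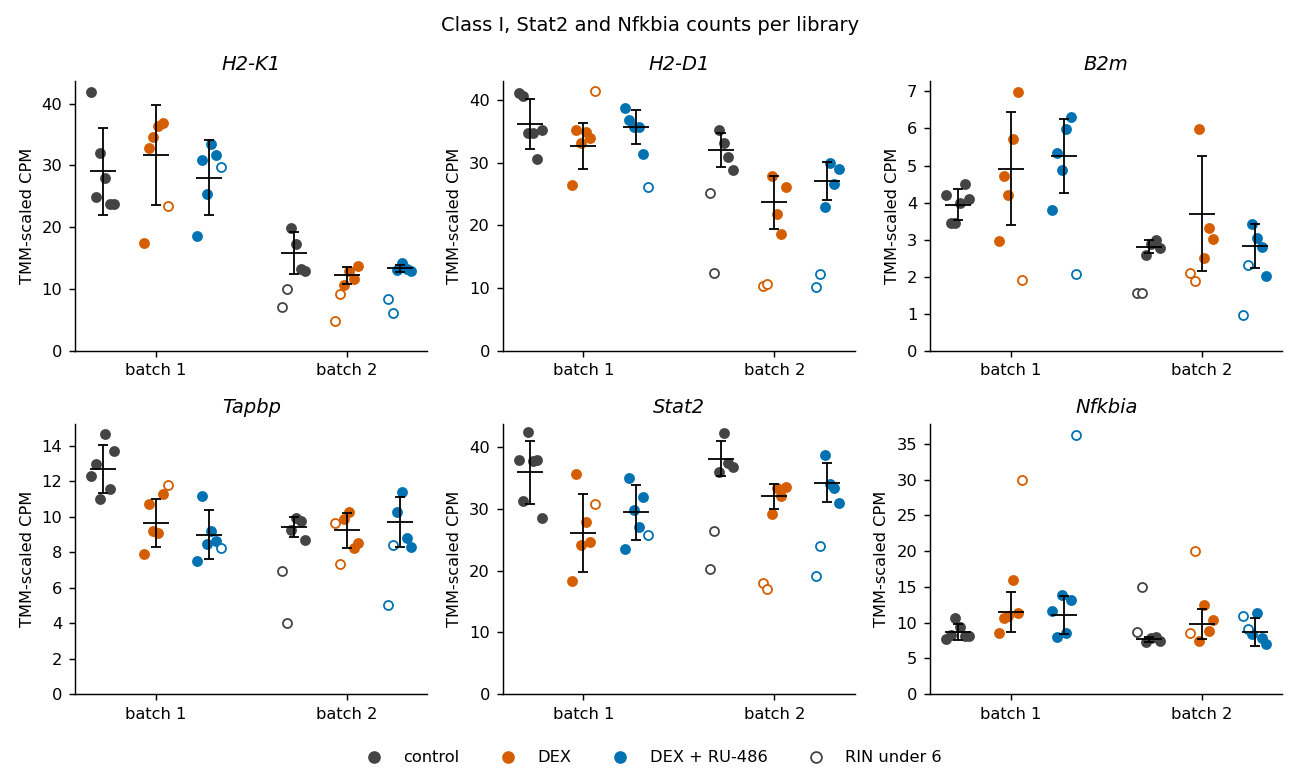
CPM of H2-K1, H2-D1, B2m, Tapbp, Stat2 and Nfkbia by library, treatment and batch, with open points for libraries of RIN under 6 and bars for the mean and SD of the libraries of RIN 6 or above. In batch 2 the intact control libraries lie above the intact DEX libraries for Stat2 (36 to 42.4 against 29.2 to 33.6), and low-RIN libraries hold the highest Nfkbia values. In that comparison Stat2 did not have an unadjusted edgeR p under 0.05.

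Within batches, no gene of the set was called with all libraries in the fit of group-by-batch means. In batch 1, DEX against control gave 0 of 18 beside 8.51% of all genes, and 2 of 18 at an unadjusted p under 0.05 (Stat2 and Nfkbia) beside 23.9%. DEX + RU-486 against control gave 0 beside 5.71%, and 2 at the unadjusted p (Tapbp and Nfkbia) beside 21.3%, while DESeq2 called Tapbp beside 9.18%, as did edgeR fitted to batch 1 alone (-0.5, adjusted p = 0.0146, where 1408 of all genes were called higher and 1723 lower). In batch 2, DEX against control gave 0 (0% of all genes) and 2 at the unadjusted p (Dhx58 and H2-D1) beside 3.68%, and DEX + RU-486 gave 0 (0%) and 0 beside 1.67%. Between the treatments there were 0 called and 0 at the unadjusted p in either batch, beside 0% and 1.99% of all genes in batch 1 and 0% and 3.39% in batch 2. DESeq2 called 0 in these other within-batch comparisons, beside 11.2% of all genes in DEX against control of batch 1 0.00491% in DEX + RU-486 against control of batch 2, 0.00983% between the treatments in batch 1 and 0% in the rest. In the intact libraries of batch 1, Stat2 fell by 0.46 (SE 0.124, edgeR adjusted p = 0.0065) and Tapbp by 0.40 (SE 0.121, adjusted p = 0.0158) in DEX, 2 of 18 beside 23.5% of all genes. In DEX + RU-486, Irf9 rose by 0.41 (SE 0.136, edgeR adjusted p = 0.0341) and Tapbp fell by 0.50 (SE 0.12, adjusted p = 0.00379), 2 of 18 beside 18.6%. In those of batch 2 there were 0 called in DEX beside 0.054% of all genes, and 1 at the unadjusted p (H2-D1, -0.42) beside 13.7%. For DEX + RU-486 there were 0 beside 0%, and 1 at the unadjusted p (Ifit2, -0.59) beside 5.1%.

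The difference between batches was tested as an interaction. For DEX against control, 0 of 18 were called beside 0.172% of all genes, and 1 (Dhx58) had an unadjusted p under 0.05 beside 12.9%. For DEX + RU-486 against control, 0 were called beside 0.0835%, and 1 (Tapbp, 0.61 higher in batch 2, SE 0.243, edgeR adjusted p = 0.286) had an unadjusted p under 0.05 beside 11.9%. Between the treatments, 0 were called beside 0% and 0 had an unadjusted p under 0.05 beside 2.29%. DESeq2 called 0 in all 3, beside 1.75%, 1.41% and 0% of all genes. With RIN as a covariate, 1 of 18 was called in the difference for DEX against control, H2-D1, lower in batch 2 (edgeR adjusted p = 0.0403, beside 0.634 without the covariate), where 427 of all genes were called higher and 141 lower.

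The 18 genes at or under the filter had mean counts of 0.4 (Oas1a) to 4.4 (Ifit1), and the nearest gene above it was Ifi27 at 7.4. They include Isg15, the ubiquitin-like modifier, Rsad2 (viperin), Bst2 (tetherin), the chemokines Cxcl10 and Ccl2, the GTPases Gbp2 and Gbp3, the sensor Zbp1, Tap2 (the partner of Tap1), Usp18, Ifit3, Ifi44, Xaf1, Rtp4, Trim30a and Lcn2. Isg15 had 66 counts in all 36 libraries together and none in 16. A count of 0 allows up to 3 counts, or 0.0288 to 0.31 CPM by library, which limits the level in the libraries at 0 and covers counting error only. Single libraries were well above it, such as Xaf1 at 3.39 CPM in control 19, Ifit3 at 2.27 in control 20 and Ifit1 at 1.55 in DEX 27, the last an intact library. Summed over the 18, intact libraries had 0.297 to 2.14 CPM (median 0.677) in batch 1 and 0.546 to 2.58 (median 1.08) in batch 2. The 6 libraries of RIN under 3 had a median of 10.1 and a maximum of 12.7 in control 20, while DEX 26 (RIN 1.4) had no count in any of the 18. Of the 140 counts of Xaf1, 40.7% came from control 19 (RIN 2.7). The class I sum went the other way, at 60.3 to 102 CPM and 45.7 to 70.7 in intact libraries of batch 1 and batch 2, and 27.1 to 42.8 at a RIN under 3. RIN moved with both sums in these libraries, and its part in them was not tested.

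**Figure D4:**
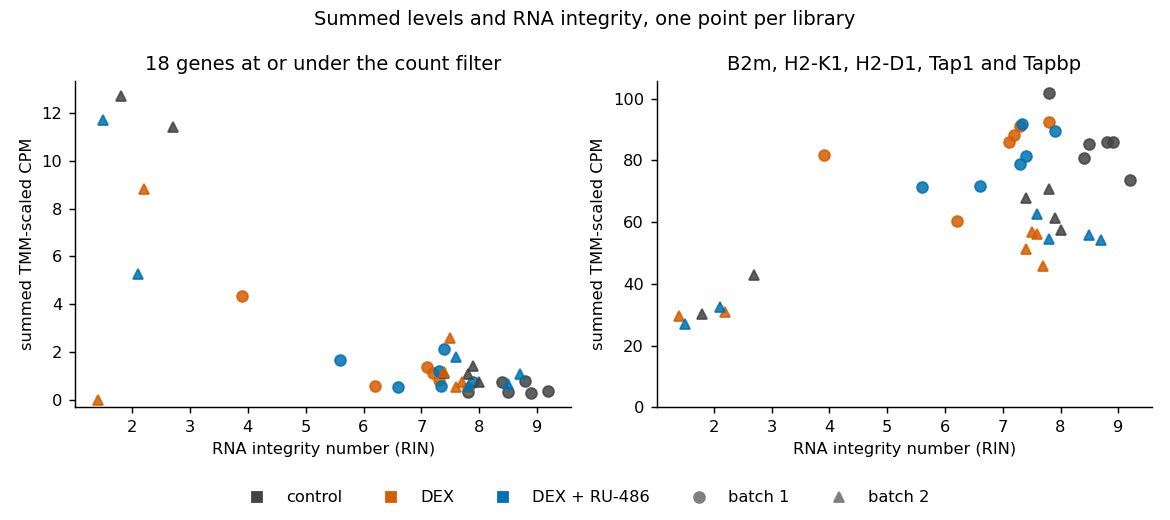
Summed CPM of the 18 genes at or under the count filter and of the 5 class I genes in each library against its RIN. The 6 libraries of RIN under 3 hold the lowest class I sums (27.1 to 42.8) and, except DEX 26 at 0, the highest sums of scarce genes.

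Other genes of the pathway were counted in lists chosen with earlier results known, and edgeR called none of their genes over both batches with all 36 libraries. At an unadjusted p under 0.05 in DEX against control, 4 receptor and signalling genes were lower, 2 other interferon-induced genes higher and 2 lower, 1 other class I gene lower, 5 NF-κB and acute phase genes higher, 1 glucocorticoid target higher and no class II gene either way, beside 16.9% of all genes at that threshold. None of 19 interferon ligands had a mean count above 5. Of 24 receptors and signalling genes 20 were tested. In batch 1, Jak1, the kinase shared by interferon receptors, fell by 0.70 (SE 0.128, edgeR adjusted p = 0.00114) in DEX and by 0.70 (SE 0.128, adjusted p = 0.00186) in DEX + RU-486, and Ifngr2, a chain of the interferon-γ receptor, fell by 0.46 (SE 0.125, adjusted p = 0.0184) and 0.44 (SE 0.124, adjusted p = 0.0318). These were 2 of 20 in each treatment, beside 8.51% and 5.71% of all genes. In the intact libraries 4 of 20 were lower in DEX beside 19.7% of all genes (Jak1, Jak2, Ifngr2 and Ifnar2, the last a chain of the type I receptor) and 2 in DEX + RU-486 beside 8.86% (Jak1 and Ifngr2), with none higher. Of 70 other interferon-induced genes 33 were tested, and in batch 1 Ifi30, a lysosomal thiol reductase, rose by 1.22 (SE 0.383, edgeR adjusted p = 0.0402) in DEX and Helz2, a helicase, by 1.79 (SE 0.492, adjusted p = 0.0262) in DEX + RU-486. Each was 1 of 33, under the 8.51% and 5.71% of all genes called in those comparisons. Of the 33, 2 rose in DEX in the intact libraries (Helz2 and Ifi30) and 3 fell (Cmpk2, Tdrd7 and Cd47), and in DEX + RU-486 2 rose (Helz2 and Mov10) and 1 fell (Tdrd7), beside the same 19.7% and 8.86%. The median log2 fold change of the 33 in DEX against control with all libraries was 0.08, beside -0.0066 for all genes, and was 0.47 in batch 1 and -0.18 in batch 2. Of 23 other class I genes 19 were tested and of 8 class II genes 4. In either list 0 were called within batches or over both with all libraries, beside 0% to 8.51% of all genes. In the intact libraries the class I chaperones Canx and Pdia3 fell in DEX, by 0.25 (SE 0.0886, edgeR adjusted p = 0.0461) and 0.35 (SE 0.0836, adjusted p = 0.00405), 2 of 19 beside 19.7% of all genes. In DEX + RU-486 4 of 19 fell beside 8.86%, Canx by 0.34 (SE 0.0883, edgeR adjusted p = 0.0152), Pdia3 by 0.45 (SE 0.0836, adjusted p = 0.0023), the chaperone Calr by 0.45 (SE 0.126, adjusted p = 0.0233) and Psme2, a proteasome activator subunit, by 0.39 (SE 0.1, adjusted p = 0.0139).

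Inflammatory and glucocorticoid-responsive genes are the context of Nfkbia. Of 28 NF-κB and acute phase genes 16 were tested, with a median log2 fold change of 0.51 in DEX against control, beside -0.0066 for all genes. The median was 0.95 in batch 1 and 0.01 in batch 2 with all libraries, and 0.78 and 0.36 in the intact ones, where 4 of 16 were called higher over both batches (Relb, Nfkbie, Nfkb2 and Ptgs2) beside 19.7% of all genes. In batch 1, 3 rose in DEX, Relb by 1.55 (SE 0.356, edgeR adjusted p = 0.006), Nfkb2 by 1.88 (SE 0.569, adjusted p = 0.0335) and Cebpb by 1.49 (SE 0.406, adjusted p = 0.0177), and none fell, 3 of 16 beside 8.51% of all genes. In DEX + RU-486 3 rose as well beside 5.71%, Relb by 1.31 (SE 0.353, edgeR adjusted p = 0.0236), Nfkbie by 1.13 (SE 0.346, adjusted p = 0.0458) and Cebpb by 1.60 (SE 0.406, adjusted p = 0.0172). Relb and Nfkb2 are NF-κB subunits, Nfkbie an inhibitor of NF-κB and Cebpb a C/EBP factor. In batch 2 the log2 fold change of Relb in DEX was -0.0016 (SE 0.351). All 8 glucocorticoid receptor targets were tested, and over both batches with all libraries 0 were called, beside 0.0246% of all genes in DEX against control. In batch 1 the clock gene Per1 rose by 0.77 (SE 0.171, edgeR adjusted p = 0.00512) in DEX and by 0.73 (SE 0.171, adjusted p = 0.0107) in DEX + RU-486. No glucocorticoid target was called in batch 2 in either treatment with all libraries, where 0% of all genes were called. In the intact libraries over both batches, Per1 (0.45, SE 0.155, edgeR adjusted p = 0.0382) and the transcription factor Zbtb16 (0.70, SE 0.232, adjusted p = 0.0314) rose in DEX, 2 of 8 beside 19.7% of all genes. By batch, 4 of 8 were called higher in batch 1 (Ddit4, Per1, Tsc22d3 and Zbtb16) beside 23.5%, and 0 in batch 2 beside 0.054%. Fkbp5, a chaperone of the receptor, fell by 0.44 (SE 0.106, edgeR adjusted p = 0.00982) in DEX + RU-486 against control, 1 of 8 beside 8.86% of all genes. In batch 1 of that comparison, 3 of 8 were called higher (Ddit4, Per1 and Tsc22d3) and 1 lower (Fkbp5), beside 18.6%. In batch 2 it gave 0 beside 0%.

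Cell composition was read from marker genes, and in bulk RNA fewer cells of a type and less RNA per cell cannot be told apart. All 10 neuron markers were tested, and their summed level was 2570 to 4440 CPM in the intact libraries and 5720 to 9920 in the 6 of RIN under 3. Map2 alone reached 8110 CPM, beside a median of 1190, and made up most of the sum of 9920 in DEX 26. The top of this range therefore rests on 1 marker. In batch 1 the sum was 3440 to 4440 in control and 2600 to 3580 in intact DEX libraries. Markers of microglia, the resident immune cells of the brain, were scarce. Tmem119 was at 0 in 22 of 36 libraries, C1qa in 17 and P2ry12 in 11. Of 8 tested microglial markers, 0 were called in any comparison with all or with intact libraries, beside 0% to 23.5% of all genes. In the intact libraries their median log2 fold change in DEX against control was 0.50 in batch 1 and -1.11 in batch 2. For DEX + RU-486 against control it was 0.04 and -1.02. In these 4 comparisons 0 had an unadjusted p under 0.05. Oligodendrocyte lineage markers differed between the intact libraries of the groups. They summed to 61.8 to 286 CPM in control, 489 to 793 in DEX and 223 to 659 in DEX + RU-486 of batch 1, and to 401 to 523, 640 to 1050 and 137 to 391 in those groups of batch 2, so that the sums of control and DEX did not overlap in either batch. In DEX against control of the intact libraries, 7 of the 8 were called higher in batch 1 and 0 in batch 2 (2 at an unadjusted p under 0.05), beside 23.5% and 0.054% of all genes. Over both batches 7 of the 8 were called higher, 4 of 7 astrocyte markers higher and 6 of 10 neuron markers lower (median -0.34), beside 19.7% of all genes. By batch, 7 neuron markers were called lower in batch 1 (median -0.455) and 0 in batch 2 (median -0.12). Of the astrocyte markers 3 were called higher in batch 1 (median 0.244) and 0 in batch 2 (median 0.611). The 5 endothelial markers had medians of 2.87 in DEX and 2.29 in DEX + RU-486 against control in batch 1 with all libraries. In each, 3 had an unadjusted p under 0.05 and 0 were called, beside 8.51% and 5.71% of all genes. In batch 2 the medians had the other sign, -0.64 and -0.45 with all libraries and -0.504 and -0.526 in the intact ones. There 0 of the 5 had an unadjusted p under 0.05. The sums of the endothelial markers were 0.451 to 4.42 CPM in the intact libraries. Kdr, a receptor of vascular endothelial growth factor, was called higher in both treatments in the intact libraries of batch 1. This was 1 of 5 in each, beside 23.5% and 18.6% of all genes. Of 3 tested fibroblast and mural markers 0 were called, beside 0% to 23.5% of all genes by comparison. The part of these markers in the calls of Stat2, H2-D1, Nfkbia, Tapbp, Irf9 and B2m was not tested.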

How the data were processed

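The authors deposited raw counts per gene for 36 libraries, per the labels from poly(A) libraries, although the study's methods name a total RNA library. The submitters' processing notes name HISAT2 2.1.0, Subread 1.5.0-p2 and GRCm38. The annotation release, strandedness and which of the study's alignments the table holds are not given in the sources used here, and symbols were read from GENCODE M21 by gene ID (55141 of 55492 rows). Depth was 12133485 to 82437454 counts a library. Of the counts, 6.22e-06% lay on 5 rows of transgene names, which were left out.

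Genes with a mean count above 5 were kept. The main test was edgeR 4.0.16 (R 4.3.3; quasi-likelihood, TMM, batch as covariate, all 36 libraries, Benjamini-Hochberg over 20355 genes), with a fit of group-by-batch means for comparisons within batches and between them. DESeq2 1.42.0, RIN limits, RIN as a covariate, other scalings and filters were alternatives, and the scripts were tested on simulated data. CPM used the filtered library size times the TMM factor. Intervals are at 95%, from the SE. For edgeR the SE was derived as the absolute log2 fold change over the square root of the F statistic. It is less reliable near a fold change of 0, as for Parp14 in DEX + RU-486 against control (-0.01, SE 1.29, beside SE 0.728 in DEX against control).

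Every gene of the set was accounted for. From each pathway list, the 3 genes of smallest p in DEX against control among those called in a comparison of all libraries or within a batch were named. The members and lists were chosen with earlier results of these data known. Genes called only in libraries of RIN 6 or above were named after their values were seen. Values of some genes are not reported here.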

Additional observations from a re-analysis of the deposited data

Results flagged for a closer look

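Within groups of 6 libraries of a treatment and batch, 18 values in 108 groups stood apart from the rest by a gap test (Dixon's critical value), spread over 11 genes. Of these, 13 were in libraries of RIN under 6, in 8 genes. Chance gives about 1 in 20. All are in CPM, with the nearest other library of the group in brackets.

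In control libraries, replicate 20 (RIN 1.8) was highest for Irf1 at 3.0 (0.739), Irf7 at 1.55 (0.843), Irf9 at 10 (6.84), Ddx58 at 2.89 (1.59) and Nfkbia at 15 (8.74), and replicate 1 was lowest for Ifit2 at 2.65 (3.95). In DEX libraries, replicate 12 (RIN 3.9) was highest for Oasl2 at 0.885 (0.27), Irf7 at 2.15 (0.612) and Nfkbia at 30 (16), replicate 26 (RIN 1.4) for Irf1 at 1.72 (0.893) and replicate 27 (RIN 7.5) for B2m at 5.98 (3.31). In DEX + RU-486 libraries, replicate 18 (RIN 5.6) was highest for Ddx58 at 3.0 (1.24) and Nfkbia at 36.3 (13.9), and replicate 31 (RIN 1.5) for Ifih1 at 1.55 (0.449) and Parp14 at 3.59 (0.705). Replicate 13 was highest for Ifi27 at 1.67 (0.289) and replicate 16 for Ifih1 at 0.679 (0.154) and Parp14 at 0.679 (0.164), both with a RIN of 6 or above.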

How the results depend on the processing

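Counts of called genes of the 18 were 0 in 59 of 66 other analyses, of which 33 called no gene of the whole table and could not move. With libraries of RIN 6 or above the count went from 0 to 3 in DEX against control, to 1 in DEX + RU-486 against control, to 2 in DEX against control of batch 1 and to 2 in DEX + RU-486 against control of batch 1. Batch 1 alone gave 1 (Tapbp) in DEX + RU-486 against control, DESeq2 gave 1 in that comparison of batch 1, and RIN as a covariate gave 1 (H2-D1) in the difference between batches of DEX against control. Among alternatives added after seeing the data, DESeq2 on libraries of RIN 6 or above gave 3 (Stat2, B2m and Nfkbia) in DEX and 1 (Irf9) in DEX + RU-486 against control, beside 21.2% and 11.2% of all genes. Those libraries without DEX 27 gave 3 (Stat2, H2-D1 and Nfkbia) in DEX against control beside 18.1% of all genes. With batch 2 alone, the fold change of DEX + RU-486 against control reversed for Irf9 (-0.03) and Tapbp (0.11). Over 14 alternatives the log2 fold change in DEX ranged from -0.38 to -0.23 for Stat2, from -0.5 to -0.05 for H2-D1, from 0.2 to 0.44 for B2m and from 0.31 to 0.79 for Nfkbia. The cause of these moves was not tested. No paired analysis was possible because the groups share no replicate numbers. Over all genes, DEX against control called 3 higher and 2 lower, against 235 and 215 with DESeq2, 187 and 268 with RIN as a covariate, and 1594 and 2418 in libraries of RIN 6 or above. In batch 1, upper-quartile scaling moved the median log2 fold change of all genes to 0.13 for both treatments, from 0.02 (DEX against control) and 0.03 (DEX + RU-486 against control). The median of the 18 moved to 0.25 and 0.35, from 0.15 and 0.26, with 15 positive in each. With it, 715 genes were called higher and 643 lower in DEX, where TMM gave 606 and 1126. For DEX + RU-486 it gave 482 and 386, where TMM gave 405 and 758.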
